A study of Anguilla anguilla with 15 samples.

Results

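Gonad RNA of female European eels (Anguilla anguilla) from Certes, the site the design calls clean, was set against a pool of gonad RNA from wild eels of that same site. The 8 arrays titled Certes were taken, of 15 in the series, and the other 7 carry gonads from the contaminated Gironde site. Each array held 1 gonad sample labelled with Cy3 and the pool labelled with Cy5, and the pool combined 30 wild Certes eels, 15 from each of 2 collection years. The series title speaks of artificial gonad maturation, and the labels give neither a treatment nor a stage for any eel. Site is therefore shared by both sides of every ratio. Dye is not shared, and time of collection and maturation treatment may not be shared either. Such differences cannot be told apart here.

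A female silver eel leaves fresh water with an ovary that is arrested before puberty, and its oocytes are held in an early, lipid-rich state by a lack of pituitary gonadotropin. In captivity this arrest is broken by repeated injections of fish pituitary extract, after which the oocytes take up yolk proteins made in the liver, grow, and finally hydrate and are shed. Follicle cells around the oocyte make the sex steroids that drive these steps. Gonad RNA is thus a mixture of oocyte and follicle cell transcripts whose proportions change with stage, and in bulk RNA fewer cells of a type and less RNA per cell give the same reading.

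The array measured 992 contigs, which are assembled transcript sequences, and the files pair none of them with a gene name. None of the IDs, 0 of 992, occurred in the eel gene table used here, so no marker of ovary, oocyte or follicle cells could be looked up and the tissue label was not checked. Values are log ratios, read here as log2 of sample over pool, so that 1 is a 2-fold difference. Neither base nor direction is stated with the deposited values. With another base, every 2-fold limit below would stand for a different fold. The direction was read from the values. Across contigs, ratios fell with the brightness of the pool on each of the 8 arrays (Spearman's rho from -0.43 to -0.18, contigs not being independent replicates). Dye is the same on all 8 arrays and its part in this relation was not tested, so the direction is not settled. If the table ran the other way, above and below would exchange throughout. The deposited values had a median of 0 on every array, so 0 stands for the middle contig of an array and not for equal amounts of RNA. Of 7936 cells 14 were empty, with 980 contigs measured on all 8 arrays, 10 on 7 and 2 on 6.

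Most contigs stood away from the pool. In limma's one-sample test of the mean log2 ratio against 0, with Benjamini-Hochberg adjustment over all 992 contigs and an adjusted p of 0.05 as the threshold, 753 contigs passed, which is 75.9%. Above the pool were 382 (38.5%) and below it 371 (37.4%). The median of the means that passed was 1.20 above and -1.09 below, against a median size of 0.87 over all 992 contigs. Dye and pool are the same on all 8 arrays, so a preference of a dye for a contig enters these counts in full, and the spread of the pool itself was not measured. Nothing in the labels says that each sample came from a different eel, and the p-values cover variation among these 8 samples, which may in part be technical.

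The near-equal split into above and below rests on where 0 is put. With each array centred on the median of the 25% of contigs that were brightest in the pool, the middle contig moved up by 0.55, and 550 contigs were above and 220 below, so that 71.4% of the calls lay above in place of 50.7%. Of the 753 contigs, 602 still passed in the same direction under that centring, 151 no longer passed, and 0 passed in the opposite direction. That centring moved the means of complete contigs up by the same amount, and the smallest mean that had passed was 0.26 in size. Passing in the opposite direction was therefore open to very few contigs, and the 0 says little about how firm the directions are. Centring on the mean or on a trimmed mean, and giving all arrays the same width, left the count between 753 and 758.

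**Figure D1:**
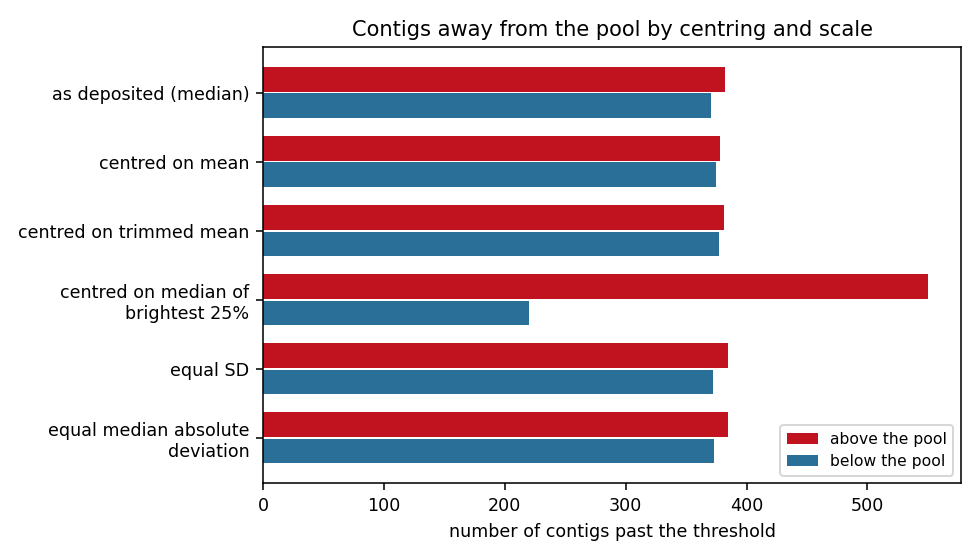
Number of contigs past an adjusted p of 0.05 (horizontal axis, of 992) above the pool (red) and below it (blue) over the 8 Certes arrays, for the deposited values and 5 other centrings or scales. The bars are near equal except with centring on the 25% of contigs brightest in the pool, where 550 lie above and 220 below.

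On all 8 arrays, 619 of the 980 complete contigs (63.2%) lay on one side of 0, and 618 of these were among the contigs past the threshold, 309 above and 309 below. Passing the test favours contigs whose arrays share a sign, so this is a description of the calls. A further 101 contigs passed with 7 of 8 arrays on one side, 23 with 6 and 2 with 5. Many of the differences were small: for 323 of the 753 contigs the mean was under 1 in size, and the smallest mean that passed was 0.26 in size.

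A stricter question is which contigs lay more than 2-fold from the pool. In limma's test against a change of 1 on the log2 scale, 297 contigs passed (29.9%), 169 above (17.0%) and 128 below (12.9%). Means of 1 or more in size without passing were found in 55 contigs above and 78 below. Every one of the 8 arrays was at 1 or higher for 123 contigs, and at -1 or lower for 95. With centring on the 25% of contigs brightest in the pool, 242 passed above and 56 below, so 81.2% lay above in place of 56.9%.

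The tails were not mirror images. Means of 3 or more were found in 37 contigs above the pool and 34 below, means of 4 or more in 14 and 19, and means of 5 or more in 2 and 13. At the deposited centring the longest distances thus lay below the pool. These counts depend on where 0 is put. With centring on the 25% of contigs brightest in the pool, the highest mean, in contig_20405, went from 6.84 to 7.39. The lowest mean, in contig_9635, went from -8.31 to -7.77. How many of these ratios were limited by background in one channel was not examined, since the scanner values could not be tied to single samples.

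The contig highest above the pool was contig_20405. Its log2 ratio was 6.48 at the lowest, 6.77 at the median and 7.30 at the highest of the 8 arrays, a mean of 6.84 ± 0.30 (SD, n = 8; limma, adjusted p = 2.13e-12). No Certes array came near 0 for this contig. The 7 Gironde arrays, set beside it, ran from 1.14 to 7.66, with a mean of 4.96 ± 2.05, and the difference between the sites did not pass (limma, adjusted p = 0.346).

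contig_27016 followed, from 4.39 through a median of 5.01 to 5.70, with a mean of 5.01 ± 0.45 (SD, n = 8; limma, adjusted p = 8.81e-11). contig_20806 ran from 3.92 through 5.10 to 5.65, with a mean of 4.87 ± 0.67. Their ranges over the arrays overlap, and the order of these 2 contigs was not tested array by array. contig_18503 had a median of 4.41 and a mean of 4.66 ± 0.62, and contig_16999 a median of 4.64 and a mean of 4.61 ± 0.46 (SD, n = 8 each). contig_16999 was also among the 3 contigs above the pool with the smallest p, together with contig_20405 and contig_27016 (limma, adjusted p = 1.93e-10).

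The remaining contigs of the 10 highest were contig_17701, contig_23259 and contig_18408, with means of 4.33 ± 0.77, 4.33 ± 0.69 and 4.31 ± 0.63 (SD, n = 8), and contig_9728 and contig_7154, which are described with the variable contigs. Of the 10, 8 had an SD under 1, whereas over all 992 contigs only 4.54% had an SD above 1. The lowest value on any array was 1.53, in contig_7154. In the pool, 7 of the 10 were dimmer than the median contig (log2 brightness 7.95), between 7.33 and 7.87. The dimmest contig of all lay at 7.09, so these 7 were close to the lower end of the scale. contig_23259, at 9.88, was the brightest of the 10. How far the pool stood above background for these contigs was not examined, so the sizes of their ratios are uncertain.

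Furthest below the pool was contig_9635, with -8.90 at the lowest, -8.41 at the median and -7.27 at the highest array. Its mean was -8.31 ± 0.56 (SD, n = 8; limma, adjusted p = 8.4e-12). contig_2266 came next, from -8.10 through -7.78 to -6.69, with a mean of -7.58 ± 0.56 (limma, adjusted p = 1.52e-11). Both contigs were bright in the pool, at 11.9 and 12.5 on the log2 scale. How far the sampled gonads stood above background for them was not examined.

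contig_35629 (mean -7.44 ± 0.78) and contig_9866 (-7.38 ± 1.21) stood close to contig_2266, within their spread (SD, n = 8 each). contig_20173, contig_20211 and contig_16406 had means of -6.80 ± 1.04, -6.75 ± 0.67 and -6.62 ± 0.66. Their ranges over the arrays overlapped as well, and the order of these contigs was not tested array by array. contig_20175, contig_5610 and contig_19237 had means of -5.84 ± 0.44, -5.75 ± 0.39 and -5.59 ± 0.59. contig_5610 had, after contig_9635 and contig_2266, the smallest p of those below the pool (limma, adjusted p = 1.66e-11). All 10 were brighter in the pool than the median contig, and the highest value on any array was -4.54. An SD under 1 was found in 8 of the 10, whereas over all 992 contigs only 4.54% had an SD above 1. Least bright of them were contig_5610, contig_35629, contig_20175, contig_20173 and contig_20211, at 8.75 to 9.29 on the log2 scale, and the dimmest contig of all lay at 7.09. How far the sampled gonads stood above background was not examined for any of the 10, so the sizes of their ratios are uncertain.

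None of the 20 contigs furthest from the pool, 0 of 20, differed between Certes and Gironde after adjustment in limma (smallest adjusted p = 0.317), and 7 of the 20 had an unadjusted p under 0.05. Of those 7, contig_9635, contig_35629, contig_20173, contig_16406, contig_20175 and contig_27016 lay nearer to 0 in Certes than in Gironde. contig_20405 lay further from 0 in Certes. The part of array width in these differences was not tested, and the 20 were chosen by their Certes means, so their share is a description. Of all 981 contigs compared between the sites, 0.102% passed after adjustment and 9.58% had an unadjusted p under 0.05. A p that misses the threshold does not show equal levels.

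**Figure D2:**
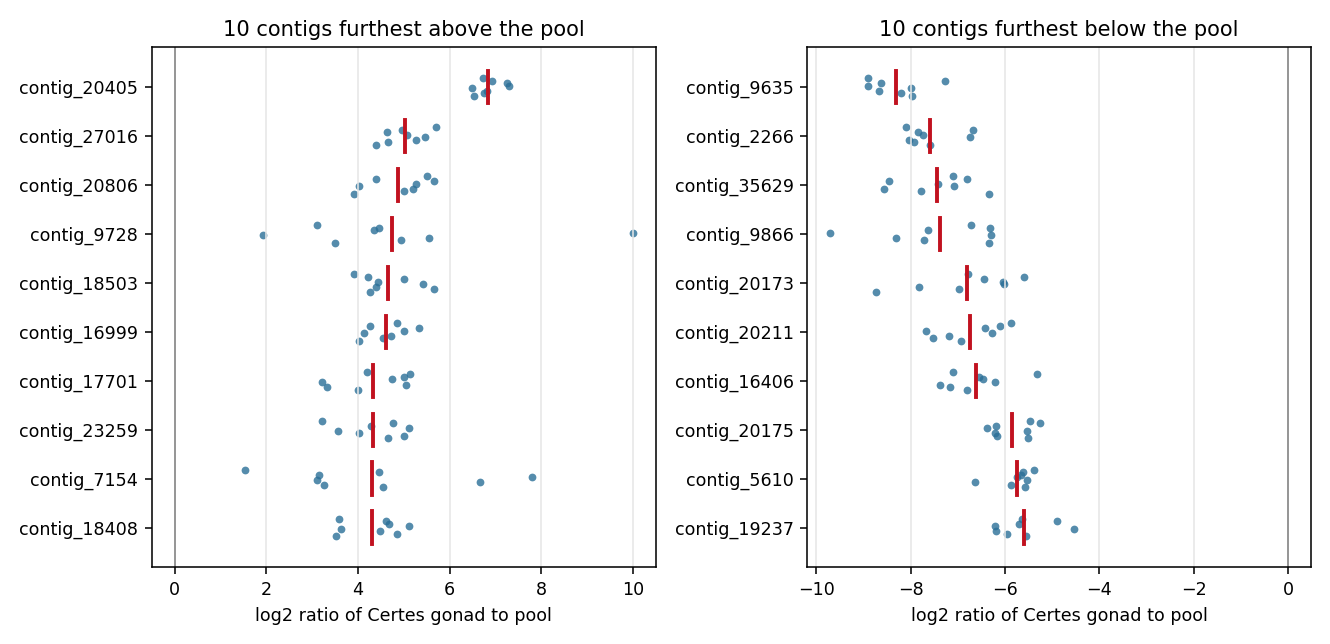
Log2 ratio of each Certes gonad to the pool (horizontal axis) for the 10 contigs furthest above and the 10 furthest below the pool that passed and lay on one side of 0 on all 8 arrays. Points are single arrays and red bars their means. Values run from 1.53 upward on the left and from -4.54 downward on the right, with the widest scatter in contig_9728 and contig_7154.

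The brightness of the pool was related to the direction of the calls. The contigs were cut into 4 groups of 248 by brightness. In the brightest 25% of contigs 24 were above the pool and 148 below, and in the dimmest 25% 111 were above and 76 below. The groups between them held 137 and 110 above against 66 and 81 below, in order of rising brightness. The median of the means was 0.27, 0.54, 0.13 and -0.55 from the dimmest to the brightest group. In the 2-fold test, 67 contigs passed above and 24 below in the dimmest 25%, and 6 above and 54 below in the brightest. Brightness was read from the reference channel of 1 slide and the pool is also the denominator of the ratio, so both measures share the pool. Their relation over contigs (Spearman's rho -0.31) is given as a description. The direction of the ratio was itself read from this relation, so the sign of the relation is not a result.

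**Figure D3:**
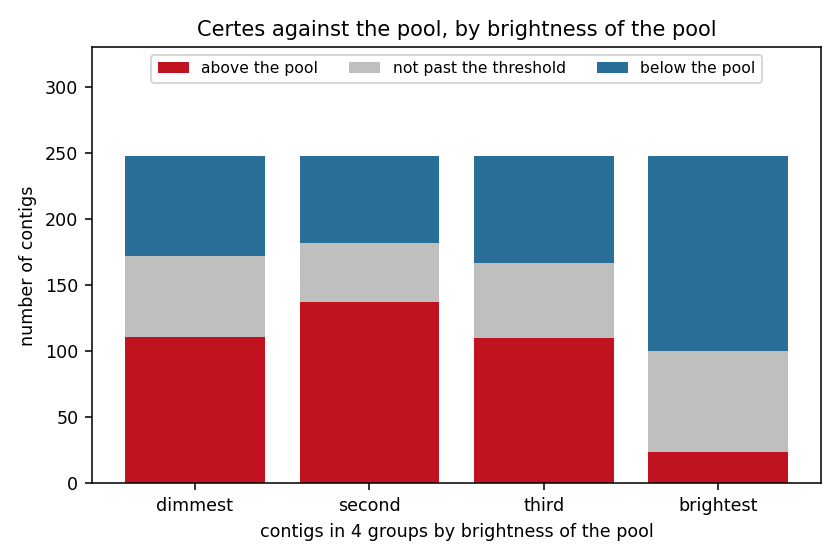
Number of contigs (vertical axis, 248 in each bar) above the pool (red), not past an adjusted p of 0.05 (grey) and below the pool (blue) over the 8 Certes arrays, in 4 groups of contigs ordered by brightness of the pool. The brightest group holds 148 below and 24 above, and the other groups hold more above than below.

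Contigs that did not pass numbered 239. For 225 of them the 95% interval of the mean lay within 1 either way, and for 126 within 0.5, so these contigs were within 2-fold of the array's middle contig at the deposited centring and scale. The other 14 were too variable over the arrays for that statement. Over all contigs the interval reached a median of 0.33 to either side of the mean. The intervals are per contig and not adjusted for their number.

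The threshold fell among small means. Just inside it lay contig_4032 at 0.56 ± 0.78 and contig_15489 at 0.26 ± 0.21 above the pool (limma, adjusted p = 0.0444 for each), and contig_18761 at -0.60 ± 0.83 and contig_5034 at -0.34 ± 0.39 below it (adjusted p = 0.0425 and 0.0434). Just outside it lay contig_29437 at 0.30 ± 0.34 and contig_19961 at 0.38 ± 0.48 (limma, adjusted p = 0.0504 and 0.0505), and contig_3175 at -0.35 ± 0.44 and contig_20014 at -0.27 ± 0.26 (adjusted p = 0.0528 and 0.0551; SD, n = 8 throughout). These 8 calls depended on single arrays and, except in contig_4032, on centring or scale. contig_4032 no longer passed without Certes 1, 2, 3, 5 or 7, contig_15489 without Certes 1, 2, 4, 5, 6, 7 or 8, contig_18761 without Certes 1, 2, 3, 5 or 7, and contig_5034 without Certes 1, 2, 4, 5 or 6 (largest adjusted p = 0.111 in limma). contig_29437 passed without Certes 2 or 7, contig_19961 without Certes 1, 2 or 5, contig_3175 without Certes 5 or 6, and contig_20014 without Certes 1 (smallest adjusted p = 0.018 in limma). contig_15489 was lost with centring on the mean or trimmed mean (limma, adjusted p = 0.0792 and 0.071). Under the same centrings contig_3175 and contig_20014 passed, and under equal median absolute deviation contig_29437, contig_3175 and contig_20014 did (limma, adjusted p from 0.0421 to 0.0487 over these fits). contig_29437 and contig_20014 also passed with equal SD (limma, adjusted p = 0.0478 for each). With centring on the 25% of contigs brightest in the pool, contig_29437 and contig_19961 passed, contig_18761 did not, and contig_5034, contig_3175 and contig_20014 changed sign without passing.

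Differences between the Certes arrays were small beside the differences between contigs. The SD of a contig over the arrays had a median of 0.43, with quartiles of 0.32 and 0.58. The SD of the contig means was 1.65, and 90.3% of the variance of the complete contigs lay between contigs and the rest between arrays within a contig. The pool, the dyes and the probes are the same on all arrays and enter the part between contigs. This share therefore does not measure how alike the gonads were. An SD above 1 was reached by 45 contigs, or 4.54%, and 31 of these had passed the test against 0, which 75.9% of all contigs did. Contigs dim in the pool varied more, with a median SD of 0.58 in the dimmest 25% and of 0.44, 0.34 and 0.38 in the following groups, and 25 of the 45 contigs with an SD above 1 lay in the dimmest 25%.

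**Figure D4:**
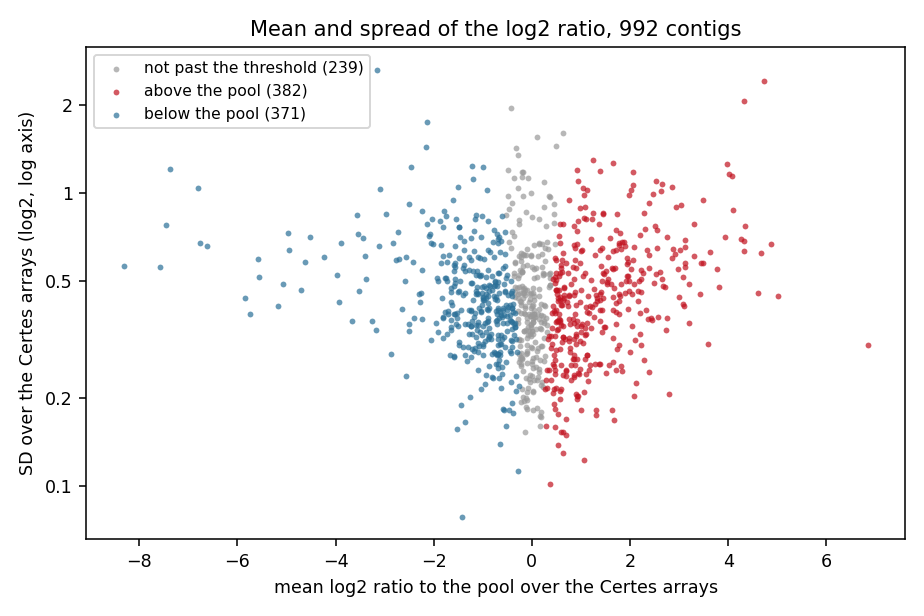
Mean log2 ratio to the pool (horizontal axis) and SD over the Certes arrays (vertical axis, logarithmic) of the 992 contigs, coloured by the result of the test against 0. The 239 contigs that did not pass lie around 0, and contig_9728 and contig_7154 are the isolated points at upper right, with means over 4 and SDs over 2.

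The 5 steadiest contigs among those with a mean of at least 1 in size included both directions. contig_31505 had the smallest SD of any complete contig, with -1.59 at the lowest, -1.40 at the median and -1.35 at the highest array and a mean of -1.42 ± 0.08 (SD, n = 8; limma, adjusted p = 5.53e-08). contig_26676 and contig_10339 were also below the pool, at -1.53 ± 0.16 and -1.36 ± 0.16. contig_39448 and contig_18861 were above it, at 1.06 ± 0.12 and 1.67 ± 0.17. Of these 5, contig_39448 alone did not pass the 2-fold test (adjusted p = 0.707 in limma), since its mean lay next to the tested limit.

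The most variable contig measured on all arrays was contig_9728, one of the 10 highest. Its log2 ratio was 1.94 in Certes 5, 3.11 in Certes 1, 3.50 in Certes 8, 4.35 in Certes 3, 4.46 in Certes 2, 4.95 in Certes 7, 5.56 in Certes 6 and 9.99 in Certes 4, a mean of 4.73 ± 2.41 (SD, n = 8; limma, adjusted p = 3.87e-05). All 8 arrays were above the pool, and Certes 4 stood apart from the others. Without Certes 4 the mean was 3.98 (limma, adjusted p = 1.95e-06). contig_7154 was next, at 1.53 in Certes 1, 3.11 in Certes 5, 3.14 in Certes 3, 3.27 in Certes 7, 4.46 in Certes 2, 4.54 in Certes 8, 6.67 in Certes 6 and 7.80 in Certes 4, a mean of 4.31 ± 2.05 (SD, n = 8; limma, adjusted p = 2.24e-05). Certes 4 and 6 were highest and Certes 1 and 5 lowest in both contigs. The Gironde means of contig_9728 and contig_7154 were 5.12 ± 1.78 (SD, n = 5) and 4.36 ± 2.43 (SD, n = 6), and neither differed between the sites after adjustment (limma, adjusted p = 0.937 and 0.999).

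In each of the other 4 most variable contigs 1 array stood far from the rest. contig_38996 was at -6.19 in Certes 7 and between -2.19 and -0.23 on the other arrays, a mean of -2.14 ± 1.74, and it passed both with and without Certes 7 (limma, adjusted p = 0.00164 and 4.7e-05). contig_21589 was at 4.24 in Certes 6 against at most 0.83 elsewhere, a mean of 0.64 ± 1.60 (limma, adjusted p = 0.214), and without Certes 6 the mean was 0.13 (adjusted p = 0.636). contig_22555 was at 3.90 in Certes 1 and near or below 0 elsewhere, with a mean of 0.10 ± 1.56 (limma, adjusted p = 0.853). Without Certes 1 its mean turned to -0.44 and passed (limma, adjusted p = 0.00892). contig_35165 was at -3.00 in Certes 1 and between 0.61 and 1.38 elsewhere, with a mean of 0.49 ± 1.44 (limma, adjusted p = 0.292), and without Certes 1 it passed at 0.99 (limma, adjusted p = 5.95e-05). With centring on the 25% of contigs brightest in the pool, contig_21589 passed at 1.19 and contig_35165 at 1.04 (limma, adjusted p = 0.048 and 0.0404). Under that centring contig_22555 did not pass, at 0.65 (limma, adjusted p = 0.207). All 6 of the most variable contigs were dimmer in the pool than the median contig, and the part of a weak signal in their spread was not tested.

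**Figure D5:**
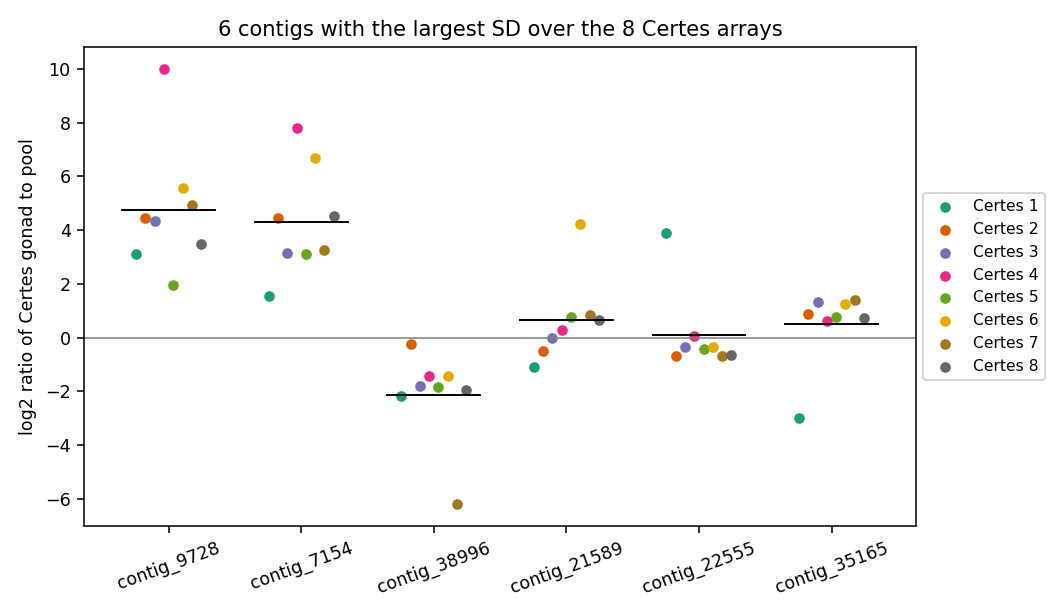
Log2 ratio to the pool (vertical axis) of the 6 complete contigs with the largest SD, with a point for each of the 8 Certes arrays and a bar at the mean. contig_9728 and contig_7154 spread above 0 on all arrays with Certes 4 highest, and in the other contigs a single array lies apart, such as Certes 7 at -6.19 in contig_38996.

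The 3 contigs whose values over the 8 arrays ran most like those of contig_9728 were contig_14520 (Pearson's r 0.92, Spearman's rho 0.71), contig_19621 (r 0.91, rho 0.67) and contig_29123 (r 0.90, rho 0.81). Without Certes 4 and 5, the arrays farthest from the median of contig_9728, r was 0.53, 0.41 and 0.83, so the first 2 likenesses rest largely on those arrays. The 3 were above the pool, at 1.64 ± 0.63, 3.02 ± 0.64 and 3.13 ± 0.56 (SD, n = 8), and each had its highest value in Certes 4. They were picked as the highest of all correlations and are a description. All arrays share the pool.

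Over the 980 complete contigs the first principal component of the 8 arrays held 29.8% of their variance. Certes 4 and 6 had scores of 14.6 and 10.3 and Certes 5 and 1 of -11.7 and -9.19, with Certes 7 at -5.56, Certes 8 at -1.90, Certes 3 at 1.57 and Certes 2 at 1.87. contig_9728 and contig_7154 carried the largest loadings, 0.23 and 0.20, and contig_9866, among the 10 furthest below the pool, had the largest with a negative sign, -0.10. The arrays at the 2 ends of the component differed in width. The SD of all ratios on an array was 1.91 on both Certes 4 and Certes 6 and 1.68 and 1.52 on Certes 1 and Certes 5. Certes 2, 3, 7 and 8 had 1.56, 1.81, 1.78 and 1.57, which does not follow the order of their scores. The part of array width in the component was not tested.

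Each array correlated with the mean of the other 7 at a Pearson r between 0.932 (Certes 1) and 0.963 (Certes 3 and 8), across contigs. The pool, the dyes and the probes are the same on all arrays and add to these values, so they do not measure how alike the gonads were. The root mean square distance to that mean was lowest in Certes 8, 0.447, and highest in Certes 4, 0.657. Contigs at 1 or higher numbered from 192 on Certes 5 to 275 on Certes 6, and contigs at -1 or lower from 178 on Certes 2 to 255 on Certes 6.

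A single array lay apart from the other 7, by Dixon's criterion for 8 values, in 69 of the 980 complete contigs, 7.04%. For normally distributed values chance gives about 1 in 20, and whether these ratios are so distributed was not examined. The array apart was high in 24 contigs and low in 45. By array, Certes 4 was the one apart in 14 contigs, Certes 7 in 13, Certes 1 and 6 in 12 each, Certes 2 in 8, Certes 5 in 5, Certes 3 in 4 and Certes 8 in 1. No array supplied most of them, and contigs are not independent, so the count was not tested against chance.

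Of the 12 contigs without a full set of values, 9 passed, 2 above and 7 below, a share close to the 75.9% of all contigs, and 10 of the 12 were dimmer in the pool than the median contig. Above the pool were contig_2643, at 4.02 ± 1.16 with Certes 4 empty, and contig_15414, at 2.03 ± 1.03 with Certes 1 empty (SD, n = 7 each; limma, adjusted p = 1.13e-06 and 0.000108). The lowest means below it were those of contig_18333, -5.06 ± 0.49 with Certes 2 empty, and contig_9476, -3.16 ± 2.63 with Certes 1 empty (SD, n = 7 each; limma, adjusted p = 8.95e-10 and 0.00271). The values of contig_9476 ran from -7.99 in Certes 3 to -1.12 in Certes 2, the largest SD of any contig. In the pool contig_9476 had the lowest brightness of any contig, 7.09 on the log2 scale. How far its signals stood above background was not examined, so neither the size nor the spread of its ratios is firm.

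The mean log2 ratio to the pool in Certes, with its sign, was compared with that in Gironde for the 981 contigs with at least 5 values in each site. In 1 contig (0.102%) the difference passed in limma with all 15 arrays, and 94 had an unadjusted p under 0.05. This contig, contig_31845, ran from -4.10 through a median of -3.34 to -2.70 in Certes and from -7.33 through -5.15 to -4.51 in Gironde. The sites did not overlap, and the difference, Certes minus Gironde, was 2.00 ± 0.36 (SE; limma, adjusted p = 0.0366; 95% interval 1.24 to 2.75). Against the pool it passed in Certes itself, at -3.38 ± 0.51 (SD, n = 8; limma, adjusted p = 4.53e-09). In the pool contig_31845 was dimmer than the median contig, at 7.85 against 7.95 on the log2 scale. The dimmest contig of all lay at 7.09. Signal above background was not examined for contig_31845 in the gonads of either site. The part of a weak signal in its site difference was not tested. The difference between the sites no longer passed with arrays brought to equal median absolute deviation or SD, or without any 1 of Certes 1, 2, 4, 5, 6 or 8 or Gironde 1, 3, 5 or 6 (limma, adjusted p from 0.0546 to 0.366).

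Next by p were contig_30208 and contig_38890, higher in Certes, and contig_27740 and contig_33281, lower in Certes, each at an adjusted p of 0.141 in limma. In all 4 the Certes mean lay nearer to 0 than the Gironde mean, which was -3.30 in contig_30208 and 1.99 in contig_33281. With arrays brought to equal median absolute deviation, the differences of contig_30208 and contig_38890 fell from 0.80 and 1.00 to 0.38 and 0.36. Those of contig_27740 and contig_33281 went from -1.29 and -0.62 to -1.33 and -0.40. contig_38890 lay at -3.93 ± 0.43 in Certes (SD, n = 8) and -4.93 ± 0.53 in Gironde (SD, n = 7), with ranges that overlapped. contig_27740 was the one of the 4 with opposite signs, -0.44 ± 0.41 in Certes (limma, adjusted p = 0.0155 against the pool) and 0.84 ± 0.75 in Gironde. For contig_27740 the sign in Certes turned to 0.10 with centring on the 25% of contigs brightest in the pool. contig_30208 was at -2.51 ± 0.36 and contig_33281 at 1.37 ± 0.26 in Certes, and both had passed the 2-fold test there (limma, adjusted p = 1.04e-06 and 0.015).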

How the data were processed

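Gonad cDNA of each sample (Cy3) was hybridised with cDNA of the pool (Cy5), starting from 10 µg of RNA, per the labels' protocols. The authors deposited 1 log ratio per contig and array, taken here as log2, and every array's median was 0 in the deposited values. Arrays are numbered within each site in the order of the samples' codes. Not given in the sources used here are the base and direction of the ratio, the background correction, the normalization and how the 3 spots of a contig were combined. A second deposited table holds scanner intensity for 2976 spots. Its slide numbers match no sample label, so 59 columns were not used, and the foreground intensity of the reference channel of slide 1 served only to rank contigs by brightness (median of log2 over spots).

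Contigs with 5 or more values were tested with limma 3.58.1 in R 4.3.3 (lmFit with an intercept, eBayes, and treat at 1 on the log2 scale), Benjamini-Hochberg adjusted. The site difference used all 15 arrays. The fit was tested on simulated data. These had independent normal values, most contigs at 0 and no effect of dye or pool, so they do not bear on such effects in the calls. Contigs were named by rules of rank: the 10 highest and 10 lowest means on one side of 0, the smallest p, the largest and smallest SD, those nearest the threshold, incomplete contigs, those that differ between sites, and those most like the most variable contig. The set of arrays, tests and rules were chosen with earlier results of these data known. The number of arrays limits the precision. Alternatives changed centring, scale, variance model, array weights, filters, test and arrays.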

Additional observations from a re-analysis of the deposited data

Results flagged for a closer look

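Among 59 sets of values (49 named contigs and 10 measures per array over the 8 Certes arrays), 8 had a sample far from the others. Chance marks about 1 in 20 where values are normally distributed, which was not examined. Certes 4 was high in contig_9728, at 9.99. Certes 6 was low in contig_5610, at -6.64, and high in contig_21589, at 4.24. Certes 7 was low in contig_38996, at -6.19. Certes 1 was high in contig_22555, at 3.90, and low in contig_35165, at -3.00, and it had 4 empty cells where the other arrays had 1 or 2. Certes 2 was low in contig_31505, at -1.59, although that contig had the smallest SD of all complete contigs. The contigs were named partly for a large SD, which makes such marks more frequent. The difference between the sites in contig_31845, Certes minus Gironde, was 2.00 by the test of the difference itself.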

How the results depend on the processing

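The count of 753 contigs away from the pool was 366 over the 495 contigs above the median brightness of the pool (135 above, 231 below), which tests fewer contigs. It was 675 at an adjusted p of 0.01 and between 739 and 770 in the other settings with all arrays, the exact sign-flip permutation test (741) included, and between 730 and 751 without 1 array (369 to 381 above, 358 to 370 below). Centring on the 25% of contigs brightest in the pool moved the count below from 371 to 220. The 2-fold count of 297 was 117 over the brighter contigs (37 above, 80 below), and 278 to 294 without 1 array (156 to 167 above, 121 to 133 below). The 128 below became 56 with that centring and 206 with no test. The 1 contig that differed between the sites became 0 with equal median absolute deviation and with equal SD, and 0 to 1 without 1 array. Its difference was 1.39 and 1.40 with these scalings. Signs turned with that centring in contig_27740 (0.10), contig_5034 (0.21), contig_3175 (0.20) and contig_20014 (0.28), and without Certes 1 in contig_22555 (-0.44, and 0.11 to 0.22 without any other array). No paired analysis was possible because sample codes differ throughout and no label ties a Certes sample to a Gironde sample. The signal above background on each array is unknown here, so the sizes of the ratios are uncertain.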
